A study of Mus musculus with 6 samples.

Results

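The genes of cholesterol and fatty acid synthesis were followed in the cochlear nucleus, the brainstem station where the auditory nerve ends, after 1 cochlea of each mouse had been silenced. A list of 34 genes was drawn up: 18 enzymes of sterol synthesis, 5 genes of the SREBP control system, 9 enzymes of fatty acid synthesis, elongation and desaturation, and 2 genes of sterol export and transport. A gene was taken where an array probe set named it alone and had a mean log2 value above 4, and its brightest such probe set stood for it. This gave 31 of the 34 genes, out of 8754 named genes tested in all. Acaca, the enzyme that commits acetyl-CoA to fatty acids, lay just outside with a mean of 3.77, the dimmest gene inside was Hsd17b7 at 5.65, and Acat2 and Insig1 were matched by no probe set with a single gene name and were not analysed here.

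The mice were at postnatal day 21. Tetrodotoxin (TTX), which blocks voltage-gated sodium channels and so stops action potentials, was delivered to 1 cochlea by osmotic pump over 24 h. Tissue from the infused side (ipsilateral) and from the opposite side (contralateral, labelled the control) was sampled as 3 biological replicates each, and each replicate pooled tissue from 10 to 12 mice and was read on 1 Affymetrix array. Both sides came from infused mice, no untreated mice were sampled, and no strain or sex is given in the labels. Counts of replicates set the ipsilateral array of a number against the contralateral array of that number, on the assumption that they are both sides of the same mice, which the labels do not state. Values are log2 GCRMA signals, a scale on which a difference of 1 is a doubling of signal. Differences are ipsilateral minus contralateral.

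Cholesterol is built from acetyl-CoA through mevalonate and squalene, and brain tissue makes nearly all of its own because lipoproteins hardly cross the blood-brain barrier. Oligodendrocytes use it for myelin, and astrocytes pass it to neurons bound to apolipoprotein E. When membrane sterol is low, SCAP escorts the SREBP transcription factors from the endoplasmic reticulum to the Golgi, where they are cut and released to switch on their target genes, and INSIG proteins hold the complex back when sterol is plentiful. SREBP-2, encoded by Srebf2, acts mainly on sterol genes, and SREBP-1c, a product of Srebf1, mainly on fatty acid genes.

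Between the sides, 25 of the 31 genes gave a slightly higher signal on the infused side, against 49.1% of all genes, but 13 of 31 did so without contralateral array 2. The 2 genes with the largest differences were Elovl5 and Lss. Elovl5, the elongase of polyunsaturated fatty acids, was lower on the infused side, and Lss, the enzyme that closes squalene epoxide into the first sterol, was higher. No gene of the list passed the test across all probe sets: limma, a linear model that shares its estimate of the spread across probe sets, called 0 of the 31 genes at a Benjamini-Hochberg adjusted p under 0.05, against 0% of all genes, and each of them had an adjusted p of 1.00. At an unadjusted limma p under 0.05 the list held 1 higher gene, Lss, against 1.11% of all genes, and 1 lower gene, Elovl5, against 1.33% of all genes (97 and 116 of 8754). With the replicate number as a block, Mvd took the place of Lss among the 2 genes, and the share of all genes under 0.05 moved from 2.43% to 3.91%. Leaving out contralateral array 1 or 2, ipsilateral array 1 or 3, or pair 2 or 3 (both arrays of a number) brought the 2 genes to 1, and leaving out pair 1 brought them to 0. An exact permutation test of single genes cannot give a two-sided p below 0.1 with 3 arrays per side, and gave 0.1 for Elovl5, Lss and Srebf2.

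**Figure D1:**
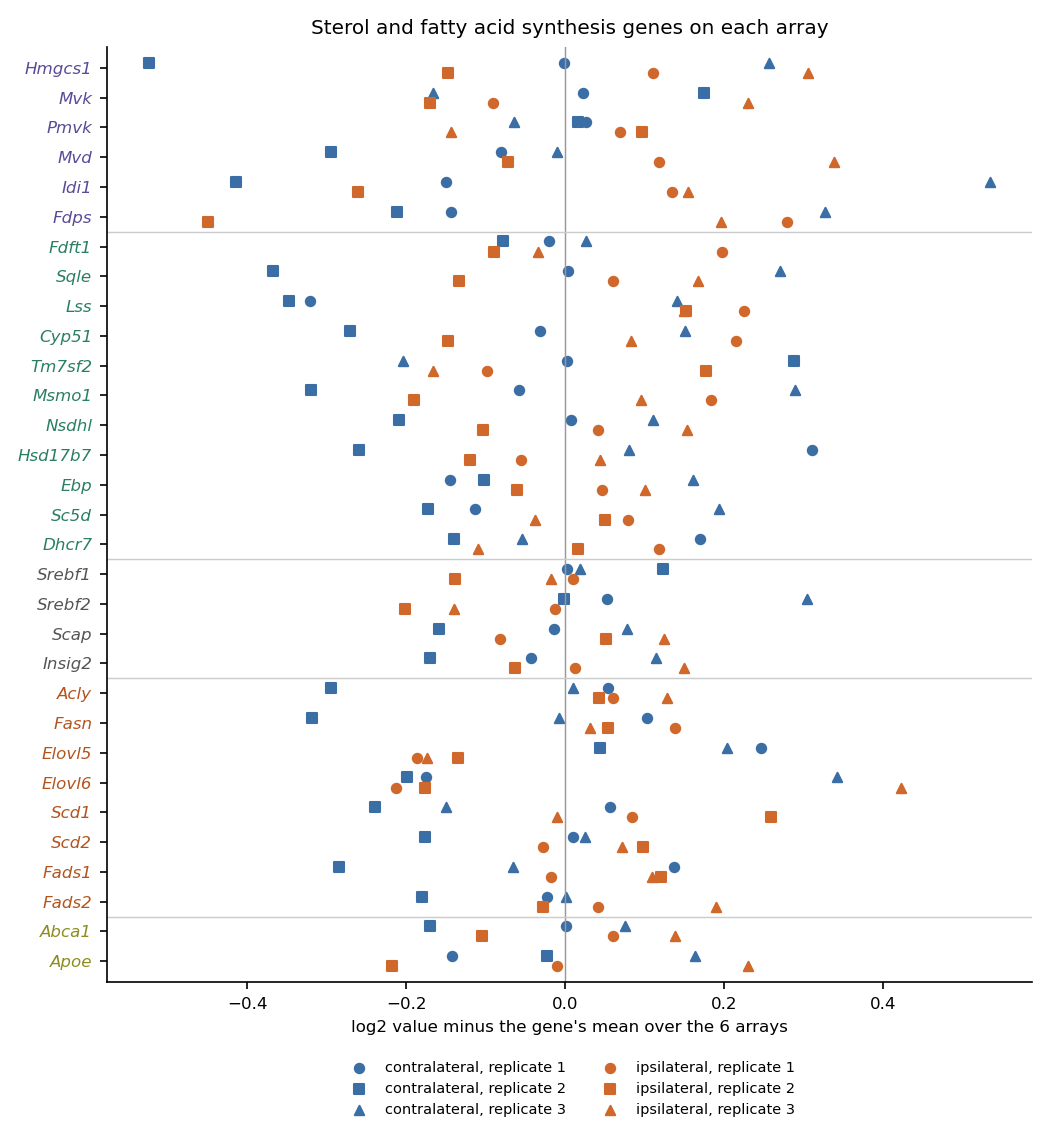
Each row is 1 of the 31 genes, and each point is 1 array, as its log2 value minus the gene's mean over the 6 arrays; blue is contralateral, orange ipsilateral, and the marker shape is the replicate number. Gene names are coloured by group, from the mevalonate steps at the top to export and transport at the bottom. For most sterol genes the squares of replicate 2 lie to the left on both sides, and Elovl5 is the row whose 3 orange points all lie left of its 3 blue points by the widest margin.

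The promoters of the 4 genes with the smallest unadjusted p (Elovl5, Lss, Srebf2 and Mvd) are printed here because their transcripts differed most between the sides, and that of Hmgcs1 because it was the 1 gene of the list with a match to the sterol regulatory element. Each is a RefSeq window of 300 bases on build GRCm38.p6, printed 5′ to 3′ on the gene's own strand, and reaches to just past the start of transcription. Capitals mark TCACNCCAC, the core of the sterol regulatory element, CCAAT, the motif of the NF-Y factor, and CACGTG, the E-box, each searched on both strands, so that CCAAT can stand as ATTGG.
Elovl5: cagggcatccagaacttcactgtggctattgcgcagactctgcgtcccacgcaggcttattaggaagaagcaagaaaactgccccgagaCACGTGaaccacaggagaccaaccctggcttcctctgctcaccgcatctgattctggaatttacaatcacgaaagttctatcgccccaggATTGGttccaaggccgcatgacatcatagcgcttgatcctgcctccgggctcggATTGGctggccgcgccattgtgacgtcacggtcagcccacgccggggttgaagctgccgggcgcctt
Lss: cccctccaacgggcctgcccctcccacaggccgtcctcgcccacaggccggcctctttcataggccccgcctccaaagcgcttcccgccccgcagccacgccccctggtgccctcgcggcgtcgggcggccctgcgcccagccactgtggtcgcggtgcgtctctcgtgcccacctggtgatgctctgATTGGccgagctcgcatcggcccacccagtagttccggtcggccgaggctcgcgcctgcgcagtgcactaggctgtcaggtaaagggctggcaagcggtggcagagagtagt
Srebf2: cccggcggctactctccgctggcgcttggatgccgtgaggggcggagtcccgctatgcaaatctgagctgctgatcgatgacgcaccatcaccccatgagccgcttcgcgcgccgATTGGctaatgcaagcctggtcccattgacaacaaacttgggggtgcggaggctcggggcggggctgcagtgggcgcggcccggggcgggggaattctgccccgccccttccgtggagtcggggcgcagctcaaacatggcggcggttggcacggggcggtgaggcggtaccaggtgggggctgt
Mvd: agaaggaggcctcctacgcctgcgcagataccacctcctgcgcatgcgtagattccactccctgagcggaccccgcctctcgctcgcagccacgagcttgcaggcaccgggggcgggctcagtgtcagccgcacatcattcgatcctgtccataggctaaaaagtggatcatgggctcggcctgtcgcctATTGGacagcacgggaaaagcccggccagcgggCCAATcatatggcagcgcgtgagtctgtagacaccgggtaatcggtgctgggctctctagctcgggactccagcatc
Hmgcs1: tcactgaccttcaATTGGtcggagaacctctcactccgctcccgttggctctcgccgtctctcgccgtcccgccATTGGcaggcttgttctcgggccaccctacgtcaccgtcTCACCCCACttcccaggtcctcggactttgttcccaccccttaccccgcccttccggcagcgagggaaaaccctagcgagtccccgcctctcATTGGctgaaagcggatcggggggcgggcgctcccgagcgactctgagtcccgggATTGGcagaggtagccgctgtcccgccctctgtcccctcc

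The windows are chr9:77917115-77917414 on the plus strand for Elovl5, chr10:76531355-76531654 (plus) for Lss, chr15:82147019-82147318 (plus) for Srebf2, chr8:122443373-122443672 (minus) for Mvd and chr13:119690101-119690400 (plus) for Hmgcs1. A window was held for 28 of the 34 genes. CCAAT was found in 21 of the 28, in 14 of 15 sterol enzymes and in 3 of 6 fatty acid enzymes, against 41.1% of 27025 genes with a window. The E-box was found in 7 of the 28, among them Elovl5, against 8.09% of all genes, and TCACNCCAC in Hmgcs1 alone, against 1.44%. A match describes these letters and was not linked to any difference between the sides.

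The mevalonate steps make the isoprenoid building blocks, and the infused side gave the higher signal for 5 of their 6 genes (median difference 0.02). Hmgcs1, which condenses acetyl-CoA units into HMG-CoA, measured 12.10, 11.57 and 12.35 in contralateral pools 1, 2 and 3 and 12.21, 11.95 and 12.40 ipsilaterally. It was higher on the infused side in 3 of 3 replicates, yet the sides overlapped because the replicates lay further apart than the sides (difference 0.18, SE 0.22, 95% interval -0.34 to 0.69). Its other 3 probe sets differed by 0.11, 0.18 and 0.23. Mvd, the decarboxylase that yields isopentenyl diphosphate, measured 5.68, 5.47 and 5.75 contralaterally and 5.88, 5.69 and 6.10 ipsilaterally. Again the infused side was the higher one in 3 of 3 replicates, by 0.20, 0.22 and 0.35, while the sides overlapped. Mvd differed by 0.26 (SE 0.14, exact permutation p = 0.2, unadjusted limma p = 0.104). With the replicate block the unadjusted limma p was 0.0311 and the adjusted p 0.991, while the exact permutation p over the 3 pairs was 0.25, the smallest that 3 pairs can give. Its second probe set differed by 0.06.

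Idi1, which isomerises isopentenyl diphosphate, showed how far the replicates could lie apart. It measured 9.34, 9.07 and 10.02 contralaterally and 9.62, 9.23 and 9.64 ipsilaterally. Contralateral array 3 was the highest of the 6 and contralateral array 2 the lowest, and the difference between the sides was 0.02 (SE 0.25). Fdps, the synthase of farnesyl diphosphate, behaved alike in size, with 8.77, 8.70 and 9.24 against 9.19, 8.46 and 9.11 (difference 0.02, SE 0.23). The mevalonate kinase gene Mvk (-0.02, SE 0.14) and the phosphomevalonate kinase gene Pmvk (0.01, SE 0.10) also differed by less than their errors.

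From squalene to cholesterol, the infused side gave the higher signal for 9 of 11 genes (median difference 0.06). Lss, lanosterol synthase, measured 7.19, 7.16 and 7.65 in contralateral pools 1, 2 and 3 and 7.73, 7.66 and 7.66 ipsilaterally. The ipsilateral arrays lay close together above all 3 contralateral ones, but contralateral array 3 came within 0.01 of them, so that the difference by replicate was 0.55, 0.50 and 0.01. Lss was 1.28-fold brighter on the infused side (difference 0.35, SE 0.15, 95% interval 0.0040 to 0.70, exact permutation p = 0.1, unadjusted limma p = 0.0480, adjusted p = 1.00). The unadjusted limma p stayed under 0.05 in 2 of the 9 fits that omitted an array or a pair, those without contralateral array 3 (difference 0.51) and without pair 3 (0.52). Omitting contralateral array 1 (0.28) or 2 (0.27), any 1 ipsilateral array (0.33 to 0.36), pair 1 (0.25) or pair 2 (0.28) put it above 0.05, as did the replicate block (0.35). Its second, dimmer probe set differed by 0.10 with overlapping sides, and the mean of both differed by 0.23.

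By their brightest probe sets, the other enzymes of this stretch lay between -0.09 and 0.10. Cyp51, the lanosterol demethylase, measured 9.04, 8.80 and 9.23 contralaterally and 9.29, 8.93 and 9.16 ipsilaterally, a difference of 0.10 (SE 0.15). Sqle, which makes squalene epoxide and is a rate-limiting step, measured 8.40, 8.02 and 8.66 against 8.45, 8.26 and 8.56 (0.06, SE 0.18). In both genes array 2 was the lowest on each side. Msmo1, a sterol methyl oxidase (0.06, SE 0.18), Nsdhl, which acts with it in removing methyl groups (0.06, SE 0.12), Sc5d, a late desaturase (0.06, SE 0.12), Ebp, which shifts a ring double bond (0.06, SE 0.11), and Fdft1, squalene synthase (0.05, SE 0.11), had small positive differences. Dhcr7, the last reductase before cholesterol, differed by 0.02 (SE 0.12). A dimmer probe set of Sc5d differed by 0.22 (SE 0.11), higher in 3 of 3 replicates with overlapping sides.

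Tm7sf2, a sterol reductase, and Hsd17b7, a ketosteroid reductase of the pathway, were the 2 genes lower on the infused side here, by -0.06 (SE 0.16) and -0.09 (SE 0.15). Tm7sf2 differed from most sterol genes across arrays: at 7.37, 7.65 and 7.16 contralaterally and 7.27, 7.54 and 7.20 ipsilaterally, it was highest on the arrays numbered 2. The 2 probe sets of Hsd17b7 differed in sign, the dimmer one at 0.41 (SE 0.21).

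In the SREBP control system 2 genes were higher and 2 lower on the infused side. Srebf2 measured 7.11, 7.05 and 7.36 contralaterally and 7.04, 6.85 and 6.91 ipsilaterally. All 3 ipsilateral values lay below all 3 contralateral ones, with 0.01 between ipsilateral array 1 and contralateral array 2, and the difference was -0.24 (SE 0.12, 95% interval -0.51 to 0.04, exact permutation p = 0.1, unadjusted limma p = 0.0805). Its second probe set differed by 0.18 in the opposite direction, and the mean of both probe sets differed by -0.03, so the direction depended on the probe set. Without pair 3 the difference of the brighter probe set was -0.13, and without contralateral array 3 it was -0.14. Srebf1 measured 8.47, 8.59 and 8.49 contralaterally and 8.48, 8.33 and 8.45 ipsilaterally (difference -0.10, SE 0.09). Scap differed by 0.06 (SE 0.11) and Insig2, which retains SCAP in the endoplasmic reticulum, by 0.07 (SE 0.11).

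Among the fatty acid genes the infused side gave the higher signal for 7 of 8 (median difference 0.14), and the exception was Elovl5. Elovl5 lengthens the polyunsaturated fatty acids made by the desaturases Fads1 and Fads2, and measured 11.60, 11.40 and 11.56 in contralateral pools 1, 2 and 3 and 11.17, 11.22 and 11.18 ipsilaterally. The ipsilateral arrays lay within 0.05 of each other and below every contralateral array, and the infused side was lower in 3 of 3 replicates, by -0.43, -0.18 and -0.38. The signal was 1.26-fold lower on the infused side (difference -0.33, SE 0.09, 95% interval -0.55 to -0.11, exact permutation p = 0.1, unadjusted limma p = 0.0100, adjusted p = 1.00), which placed Elovl5 at rank 45 by p among 8754 genes. Its second probe set gave 11.25, 11.10 and 11.31 contralaterally and 10.83, 10.85 and 10.91 ipsilaterally (difference -0.36, SE 0.095), also with no overlap. That second probe set is of a type prone to cross-hybridization, while the brightest one is not. Both probe sets read the same RNA samples and are not independent replicates. The difference of Elovl5 stayed between -0.41 and -0.28 whichever array or pair was omitted. Its unadjusted limma p stayed under 0.05 in 7 of those 9 fits, and was above it without pair 1 (difference -0.28) and without pair 3 (-0.31).

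**Figure D2:**
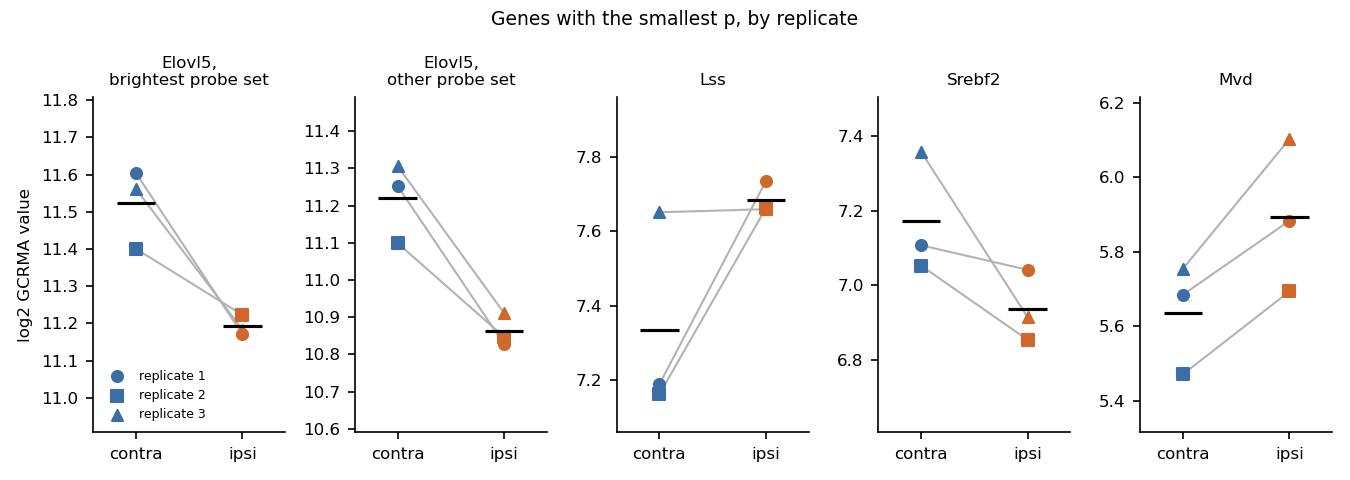
Log2 GCRMA values of the 4 genes with the smallest unadjusted p, with both probe sets of Elovl5; each panel spans 0.9 log2 units, each marker is 1 array, grey lines join the arrays of a replicate number, and black bars are side means. Elovl5 is lower on the ipsilateral side in every replicate in both probe sets, while the gap of Lss comes from replicates 1 and 2, and Mvd is higher in every replicate over a spread between replicates of like size.

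The desaturases Fads1 and Fads2 work beside Elovl5. Fads1 measured 9.88, 9.45 and 9.67 contralaterally and 9.72, 9.86 and 9.85 ipsilaterally (difference 0.14, SE 0.13), and Fads2 measured 8.54, 8.38 and 8.57 against 8.61, 8.54 and 8.75 (0.13, SE 0.10). Fads2 was higher in 3 of 3 replicates and Fads1 in 2 of 3, and neither had an unadjusted limma p under 0.05. The second probe set of Fads2 differed by -0.063, and Fads1 differed by 0.035 without contralateral array 2 and by 0.010 without pair 2. Whether the genes differ from Elovl5 in their response was not tested.

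None of the 5 enzymes that make saturated and monounsaturated fatty acids had an unadjusted limma p under 0.05. Fasn, fatty acid synthase, measured 9.42, 8.99 and 9.30 contralaterally and 9.45, 9.37 and 9.34 ipsilaterally (0.15, SE 0.13), and Acly, which supplies cytosolic acetyl-CoA, 11.17, 10.82 and 11.12 against 11.17, 11.16 and 11.24 (0.15, SE 0.12). Both were higher in 3 of 3 replicates, mainly through a low contralateral array 2: in replicate 2 they differed by 0.37 and 0.34 and in replicate 1 by 0.04 and 0.01. That probe set of Acly is of a type prone to cross-hybridization, and the difference was 0.049 and 0.042 in 2 further Acly probe sets. The same array was the lowest contralateral one for 8 of the 8 fatty acid genes, against 3370 of the 8754 genes tested. Scd1, a stearoyl-CoA desaturase, measured 11.33, 11.03 and 11.12 contralaterally and 11.35, 11.53 and 11.26 ipsilaterally (0.22, SE 0.12, 95% interval -0.064 to 0.51). Its paralog Scd2, the form typical of brain, differed by 0.09 (SE 0.10), with 13.77, 13.59 and 13.79 against 13.74, 13.86 and 13.84. The other probe sets of Scd1 (-0.04) and of Scd2 (-0.04 and -0.20) gave the opposite sign. Elovl6, the elongase of saturated chains, measured 8.35, 8.33 and 8.87 contralaterally and 8.31, 8.35 and 8.95 ipsilaterally, so that array 3 was the high one on both sides (difference 0.02, SE 0.22, and -0.11 for its second probe set).

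Abca1, the transporter that loads cholesterol onto apolipoproteins, measured 9.04, 8.87 and 9.12 contralaterally and 9.10, 8.94 and 9.18 ipsilaterally. It was higher on the infused side by 0.06 in each replicate, less than the SE of its difference (0.11). Its dimmer tested probe sets differed by -0.0032 and -0.15. Apoe, the main lipid carrier released by astrocytes, measured 12.91, 13.03 and 13.22 against 13.04, 12.84 and 13.28, a difference of 0.0009 (95% interval -0.34 to 0.34).

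**Figure D3:**
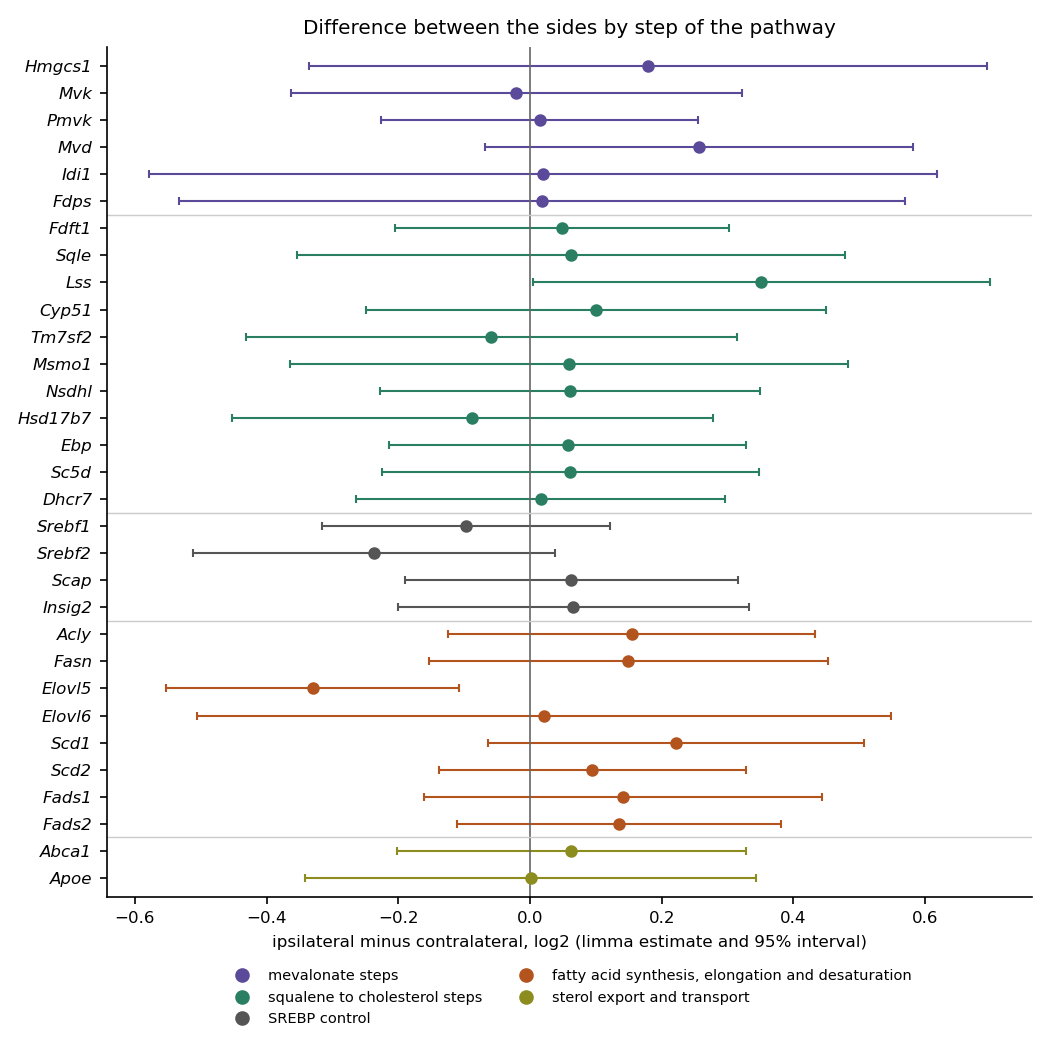
Ipsilateral minus contralateral difference of each of the 31 genes on the log2 scale, with the limma estimate as a point and its 95% interval (3 arrays per side) as a bar, coloured by step of the pathway. The intervals of 29 genes include 0; those of Elovl5, at -0.55 to -0.11, and Lss, at 0.0040 to 0.70, do not, before any adjustment for multiple testing.

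By count, 25 of the 31 genes had a difference above 0, against 49.1% of all genes tested, with a median of 0.06 against -0.0029 for all genes. Without contralateral array 2, 13 of the 31 genes did, among them 7 of 17 sterol and 6 of 8 fatty acid genes, against 44.9% of all genes, and the median was -0.0066. Hmgcs1, Sqle, Cyp51 and Idi1 were among the genes whose sign turned there. When any other array or pair was omitted the count lay between 20 and 25, and that of the sterol genes was lowest, at 9 of 17, without ipsilateral array 1. The signal was higher on the infused side in 3 of 3 replicates for 10 of the 31 genes, against 11.1% of all genes, and lower in 3 of 3 for 2 genes, Elovl5 and Srebf2, against 13.8%. The sides did not overlap, with the infused side higher, for 1 gene, Lss, against 2.74% of all genes, and with the infused side lower for Elovl5 and Srebf2, against 3.88%. In either direction that was 3 of 31 genes, against 6.63% of all genes. These genes share regulators and the same 6 arrays and are not independent of each other, so the counts are a description.

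Sterol and fatty acid steps were then set side by side by replicate. The 17 sterol genes had a median difference of 0.06 and the 8 fatty acid genes one of 0.14, so that the sterol median was lower by 0.08 (-0.08). That order was not the same in each replicate. In replicate 1 the sterol genes had a median of 0.19 and the fatty acid genes one of -0.02. In replicate 2 the medians were 0.13 and 0.31, and in replicate 3 they were -0.06 and 0.10. The sterol minus fatty acid value was thus 0.21, -0.18 and -0.16 in the 3 replicates, a spread wider than its overall value. Omitting contralateral array 3, ipsilateral array 2 or pair 3 brought it to between -0.0052 and -0.0021, and omitting pair 2 to 0.0093. It was -0.042 without contralateral array 2, -0.12 without ipsilateral array 1, -0.14 without contralateral array 1 and -0.16 without pair 1. With the mean of all probe sets of each gene it was 0.0006, the fatty acid median being 0.059 there, and with the choroid plexus marker level as a covariate -0.042.

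Among sterol genes the infused side was the higher one for 13 of 17 in replicate 1, against 42.6% of all genes, for 13 of 17 in replicate 2, against 55.1%, and for 6 of 17 in replicate 3, against 48.2%. Among fatty acid genes the counts were 4, 7 and 7 of 8. Hmgcs1, Mvd, Lss and Nsdhl were the sterol genes that were higher in 3 of 3. For 12 of the 17 sterol genes the highest contralateral value was on array 3, against 3077 of the 8754 genes tested. For 13 of the 17 the lowest was on array 2, against 3370 of the 8754. The sterol median was 0.17 without contralateral array 3 and -0.0095 without contralateral array 2. It was 0.018, 0.13 and 0.026 without ipsilateral arrays 1, 2 and 3, and 0.026, 0.039 and 0.12 without pairs 1, 2 and 3. The fatty acid median was 0.032 without contralateral array 2 and 0.029 without pair 2.

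The replicates differed more than the sides for the sterol genes. Array 3 was above array 2 on both sides for 11 of the 17 sterol genes and for 19 of the 31 genes, against 33.7% of all genes tested. Contralateral array 3 exceeded contralateral array 2 by a median of 0.34 over the sterol genes and ipsilateral array 3 exceeded ipsilateral array 2 by 0.23, where the medians over all genes were 0.02 and -0.0068. The mean of the 6 mevalonate genes was 8.37, 8.21 and 8.57 contralaterally and 8.52, 8.25 and 8.60 ipsilaterally, so that the order of the replicate numbers was the same on both sides. The mean of the 11 later sterol genes was 8.24, 8.08 and 8.36 contralaterally and 8.35, 8.21 and 8.30 ipsilaterally, again lowest for replicate 2. For the 8 fatty acid genes the means were 10.51, 10.25 and 10.50 contralaterally and 10.44, 10.49 and 10.55 ipsilaterally, where only the contralateral array of replicate 2 was low. The typical spread within a side (median SD) was 0.20 for the sterol genes, 0.14 for the fatty acid genes and 0.15 for all genes.

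**Figure D4:**
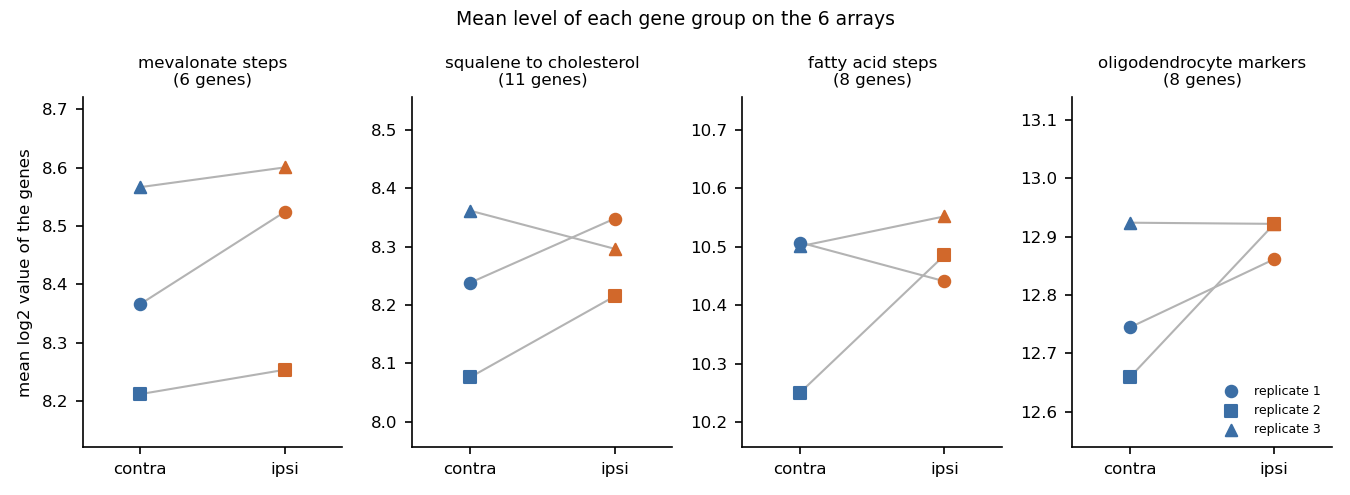
Mean log2 value of the 6 mevalonate genes, the 11 genes from squalene to cholesterol, the 8 fatty acid genes and 8 oligodendrocyte markers on each array; each panel spans 0.6 log2 units, markers give the replicate number and grey lines join its 2 sides. Replicate 2 is lowest on both sides for the sterol groups, and for the fatty acid genes and the markers it is low on the contralateral side only; the ipsilateral marker values of replicates 2 and 3 coincide.

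Cell type markers were read on the same arrays, since in tissue RNA fewer cells of a type and less RNA per cell cannot be told apart. The 8 oligodendrocyte markers tested all had a higher signal on the infused side (8 of 8, median 0.13), against 49.1% of all genes. So did 9 of 10 astrocyte markers (median 0.05), 8 of 9 microglial markers (median 0.17) and 5 of 10 neuron markers (median 0.02). The mean of the oligodendrocyte markers was 12.74, 12.66 and 12.92 contralaterally and 12.86, 12.92 and 12.92 ipsilaterally. It was thus lowest on contralateral array 2, where the sterol and fatty acid genes were low too. Ugt8a, which makes the myelin lipid galactosylceramide, measured 11.43, 11.01 and 12.11 contralaterally and 11.83, 11.60 and 12.00 ipsilaterally (0.30, SE 0.27). The mean of 10 astrocyte markers ranged from 10.55 to 10.69 contralaterally, again lowest on array 2, and from 10.69 to 10.71 ipsilaterally. That of 9 microglial markers ranged from 6.57 to 6.87 contralaterally and from 6.82 to 6.90 ipsilaterally, with 3 of 9 higher at an unadjusted limma p under 0.05, against 1.11% of all genes. A further list held 8 markers chosen for granule and Purkinje cells of the cerebellum, which adjoins the nucleus. Their signal need not come from the cerebellum. On the infused side 5 of them were higher and 3 lower. Among those lower, 1 had an unadjusted limma p below 0.05, as did 1.33% of all genes in that direction. That one was Calb1, a calcium-binding protein of Purkinje cells and some other neurons, at 10.14, 10.23 and 10.44 contralaterally and 9.70, 9.81 and 9.85 ipsilaterally (-0.48, SE 0.11). Like Elovl5 it was lower in 3 of 3 replicates with no overlap. The others lower were Car8 (-0.31, SE 0.16, lower in 3 of 3) and Pcp2 (-0.30, SE 0.50, higher in 1 of 3). The 5 higher were Pvalb (0.03, higher in 3 of 3), Gabra6 (0.07), Cbln1 (0.14), Cbln3 (0.13) and Neurod1 (0.14). Whether the signal of these 8 markers came from the cerebellum or from the cochlear nucleus itself was not tested. The mean of the 8 was 10.00, 10.01 and 10.40 contralaterally and 9.89, 9.91 and 10.40 ipsilaterally. Array 3 was above array 2 on both sides for 7 of these 8 and for 11 of the 17 sterol genes, against 33.7% of all genes. The same held for 7 of 10 neuron, 3 of 8 oligodendrocyte, 4 of 10 astrocyte and 3 of 9 microglial markers. The part of these cell types in the differences of the sterol and fatty acid genes was not tested.

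Choroid plexus markers, from the secretory tissue beside the nucleus, averaged 7.36 to 8.07 contralaterally and 9.11, 4.70 and 4.98 on ipsilateral arrays 1, 2 and 3. Elovl5 measured 11.17, 11.22 and 11.18 on ipsilateral arrays 1, 2 and 3. With the marker level as a covariate it differed by -0.34, with an unadjusted limma p under 0.05. With the same covariate Lss differed by 0.35, with an unadjusted limma p above 0.05, and Srebf2 by -0.19. The part of choroid plexus tissue in these differences was not tested. As a check of the tissue, Atoh7, a marker of bushy cells of the cochlear nucleus, measured 9.27 to 9.88 over the 6 arrays. The other 6 tested markers of cochlear nucleus identity (Lhx2, Lhx9, Barhl1, Hoxa2, Hoxb2 and Glra1) measured 4.75 to 6.17.

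Of 40 further genes of sterol and fatty acid metabolism 26 were tested, of which 13 had a higher and 13 a lower signal ipsilaterally (median difference -0.00016). None of the 26 had an unadjusted limma p under 0.05 in either direction, with or without the replicate block, where 2.43% and 3.91% of all genes did. At those shares a count of 0 among 26 is near the background. The 6 of smallest p were Hsd17b12, an enzyme of chain elongation (-0.16, SE 0.11), Acacb, the acetyl-CoA carboxylase of mitochondria (0.16, SE 0.13), Lpcat3, which places polyunsaturated chains in phospholipids (-0.14, SE 0.12), Elovl4, the elongase of very long chains (0.09, SE 0.10), Npc1, which exports cholesterol from lysosomes (0.12, SE 0.14), and Lcat, which esterifies cholesterol on lipoproteins (-0.08, SE 0.09). Hsd17b12 works in the same elongation cycle as Elovl5, and at 10.34, 10.40 and 10.19 contralaterally and 10.13, 10.31 and 10.03 ipsilaterally it was lower in 3 of 3 replicates while its sides overlapped.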

How the data were processed

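Total RNA from 6 pools was measured on 1 array each. The deposited values are log2 expression values that the authors made with GCRMA, per the submitters' processing notes. The GCRMA version is not given in the sources used here, and the log2 unit was inferred from the range of the values. GCRMA shrinks dim signals and normalizes between arrays, which removes changes common to most genes. Array medians lay between 5.86 and 5.91. Precision is limited by the number of arrays, and p-values measure the spread between these pools.

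Each sample's description gave its side and replicate number. Gene names are those of the platform annotation (20393 of 22690 with 1 symbol, 691 with several, 1606 with none). Leaving out 64 control and 7328 dim probe sets (mean at or below 4) left 15298. These were fitted with limma 3.58.1 in R 4.3.3 (lmFit, eBayes) without a block, with Benjamini-Hochberg adjustment over all of them. In simulated data the fit recovered 20.3% of planted changes of 0.5 log2, 69.4% of those of 1 and 91.4% of those of 2. The largest differences among the 31 genes, 0.35 and -0.33, were smaller than any size simulated, so the lack of adjusted calls does not exclude differences of that size. An exact permutation test of 3 against 3 arrays cannot give a two-sided p below 0.1. Lists are described by counts and medians only, with no test. The gene lists, the members and the alternatives were chosen with earlier results of these data known. Named genes were all members and the 6 other pathway genes of smallest p; promoters were those of the 4 members of smallest p, with Hmgcs1 added after its motif was seen.

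Samples that share a number were assumed to be both sides of the same mice, since 1 ear per mouse was infused and mice were pooled per replicate, although the labels tie no number to mice. Their deviations from the side means correlated at 0.09, 0.04 and 0.57 for replicates 1, 2 and 3 across probe sets. Samples of different numbers correlated at -0.37 to 0.30, and contralateral 1 with ipsilateral 2 (0.30) and contralateral 2 with ipsilateral 1 (0.19) exceeded the first 2 of those values, so the data alone do not show the pairing of replicates 1 and 2. The replicate block was an alternative, besides filters, normalizations, variance models, probe set choice, a choroid plexus covariate, and leaving out each array or pair.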

Additional observations from a re-analysis of the deposited data

How the results depend on the processing

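No alternative brought any of the 31 genes past the adjusted threshold in limma. Over all probe sets the count past it was 0 (364 with an unadjusted p under 0.05), also with the replicate block (569), and ranged from 0 to 5 when an array or a pair was omitted, with 5 without ipsilateral array 1 and 2 without pair 1. The count of the 31 genes with an unadjusted p under 0.05 ranged from 0 to 2 over those fits, was 1 with the mean of all probe sets per gene and 1 with the choroid plexus covariate, and stayed at 2 with the replicate block. The count of genes with a difference above 0, recounted after the values were seen, ranged from 13 to 25 over the fits omitting an array or a pair and from 22 to 25 of 31 under the other alternatives (24 of 29 with a mean above 6). The sterol median ranged from -0.0095 to 0.17, the fatty acid median from 0.029 to 0.19 and the sterol minus fatty acid value from -0.16 to 0.0093 when arrays or pairs were omitted. The replicate block cannot move a difference or a median in this balanced design, and it changed no adjusted call.

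Of 308 gene values under the other alternatives 9 turned sign, for 6 genes. The 308 include many values that could not turn. The filters on dim probe sets, the trended and robust variance and the replicate block leave each gene's difference unchanged. With the mean of all probe sets per gene Abca1 was at -0.029, Elovl6 at -0.044, Hsd17b7 at 0.16 and Scd2 at -0.051. With array weights Apoe was at -0.0057 and Elovl6 at -0.026, and with the choroid plexus covariate Apoe was at -0.011, Elovl6 at -0.11 and Scap at -0.0002. Omitting arrays or pairs turned the sign of 20 genes at least once. Their ranges were Abca1 (-0.0066 to 0.13), Apoe (-0.11 to 0.11), Cyp51 (-0.0095 to 0.20), Dhcr7 (-0.053 to 0.11), Ebp (-0.0094 to 0.15), Elovl6 (-0.18 to 0.20), Fdft1 (-0.038 to 0.11), Fdps (-0.18 to 0.25), Hmgcs1 (-0.038 to 0.35), Hsd17b7 (-0.24 to 0.051). For the others they were Idi1 (-0.18 to 0.29), Insig2 (-0.0024 to 0.14), Msmo1 (-0.086 to 0.22), Mvk (-0.23 to 0.14), Nsdhl (-0.029 to 0.13), Pmvk (-0.030 to 0.090), Sc5d (-0.019 to 0.21), Scap (-0.011 to 0.13), Sqle (-0.11 to 0.21), Tm7sf2 (-0.18 to 0.071). The remaining 11 genes kept their direction. Of these, Elovl5 (-0.41 to -0.28) and Lss (0.25 to 0.52) stayed within 1.5 times of their difference over all arrays. The others moved by more than that: Srebf2 (-0.32 to -0.13), Acly (0.045 to 0.23), Fads1 (0.010 to 0.29), Fads2 (0.074 to 0.18), Fasn (0.027 to 0.24), Scd1 (0.084 to 0.32), Scd2 (0.0051 to 0.16), Srebf1 (-0.15 to -0.014) and Mvd (0.15 to 0.36). The cause of these turns was not tested. Mvd and Hsd17b7 had no value with a mean above 6. Dim probe sets such as those of Mvd and Hsd17b7 lie closest to the background.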
